A study of Rattus norvegicus with 6 samples.

Results

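Menin, the protein of the Men1 gene, and a set of genes for enzymes and scaffolds that write, erase or read histone marks were compared between INS-1 cells carrying menin S487D and INS-1 cells carrying menin S487A. The set held 45 genes chosen by name. Of these, 43 had a row under that name in the table of 35362 gene rows, and Kmt2b and Setd1a had none. A further 4 members (Kmt2a, Suv39h2, Hdac6 and Hdac9) were too low for the test, which left 39 members among 12527 genes tested. INS-1 is an insulin-producing line from a rat pancreatic beta cell tumour. Both groups had been transduced with a pMX-puro-Flag-Menin retrovirus and were at passage 75-80. The encoded menin has alanine in place of a serine in one group, a residue that cannot take a phosphate, and aspartate in the other, whose negative charge is used to mimic phosphoserine. Each group had 3 libraries of mRNA. Both carried a transgene, so no group with the native gene alone, with wild-type menin or with an empty vector enters the comparison, and the labels do not say how many cell clones a population came from. Nothing in the labels ties the libraries of a group to separate cultures, so the p-values cover the spread among these libraries alone, and that spread may be technical.

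Menin is a scaffold without enzyme activity of its own. It tethers the methyltransferases of Kmt2a and Kmt2b, together with the chromatin reader Psip1, to promoters. These enzymes work inside COMPASS complexes, whose shared core of Wdr5, Rbbp5, Ash2l and Dpy30 raises the methylation of histone H3 lysine 4 at active genes. Polycomb repressive complex 2, built on Ezh1 or Ezh2 with Eed and Suz12, places the opposing repressive mark on lysine 27, and in beta cells the balance between menin with its methyltransferases and Polycomb is known for its control of cell cycle inhibitors. Deacetylases remove acetyl groups from histone tails, mostly within corepressor complexes such as that of Sin3a.

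The libraries held 9444801 to 10867549 reads assigned to listed genes, and tested members had from 71 reads (Hdac8) to 4713 reads (Kmt2d) in a library. Levels are in RPKM, reads per kilobase of gene scaled to library size, and are means ± SD over n = 3 libraries. A log2 change is S487D minus S487A on log2(RPKM + 1), which shrinks the change of lowly read genes, and is given with its standard error (SE). A gene is called changed where the limma test across all genes had a Benjamini-Hochberg adjusted p under 0.05. Of 13 beta cell markers found, 12 were at 1 RPKM or more in both groups, and the other, Ucn3, averaged 1.64 RPKM in S487A and 0.724 in S487D. Their sum ran from 8800 to 9420 RPKM in S487A and from 20970 to 22120 in S487D, most of it Ins1. Of these markers 9 rose, among them Ins1, Mafa and Slc30a8 (log2 changes 1.84, 1.89 and 2.40), and 3 fell, which were Nkx6-1, Abcc8 and Chga (-1.03, -0.42 and -0.13). Markers of acinar, endothelial and immune cells and of delta and PP cells stayed under 1 RPKM in every library. The alpha cell hormone gene Gcg, the ductal keratin gene Krt7 and the surface protein gene Thy1 were read at over 60 RPKM in each library, and all 3 differed between the groups, with log2 changes of 3.08, -1.38 and 0.58. The summed marker lists of these 3 cell types ran from 91.7 to 103.8 RPKM in S487A and 782.5 to 864.0 in S487D for alpha cells, from 209.0 to 227.7 and 81.1 to 84.9 for ductal cells, and from 65.9 to 69.8 and 96.4 to 103.9 for fibroblasts. The part of all these shifts in the changes below was not tested. In bulk RNA, fewer cells that express a gene and less RNA per cell cannot be told apart.

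In S487D cells the deacetylase genes Hdac11, Hdac2 and Hdac5, the methyltransferase gene Kmt2d and the Polycomb genes Ezh1 and Suz12 were lower, and Men1, Daxx, Prmt1 and Prmt5 were higher. Of the 39 members tested, 21 changed (53.8%), where 44.4% of all genes tested did. Of these, 9 rose, against a background of 20.1%, and 12 fell, against 24.3%. Taken by role, 25 to 75% of the tested genes were called, shares that rest on only 2 to 8 genes each. The changes were small. Only 5 of 39 members (12.8%) were called with a change of 1.25-fold or more on the log2(RPKM + 1) scale, where 22.6% of all genes tested were. On that scale Hdac11 was the single member called past 1.5-fold, as were 1034 of the 12527 genes tested. As plain ratios of mean RPKM, Kmt2d (1.52-fold lower) and Men1 (1.505-fold higher) were past 1.5-fold too. Ezh1 (1.274-fold lower) and Setd2 (1.253-fold lower) were then past 1.25-fold. The median log2 change was -0.01 over the members and -0.01 over all genes. All 21 called members had groups that did not overlap, and so did Ash2l and Suv39h1, which were not called. These 23 are 59.0% of the members, where 54.6% of all genes tested had groups that did not overlap. Summed over the 39 members tested, reads made up 0.483 to 0.490% of assigned reads in S487A and 0.454 to 0.471% in S487D. The split by direction depended on scaling and on single libraries. Centring each library on its median gave 12 higher and 9 lower, and turned the split over all genes as well, to 28.0% higher and 19.6% lower. Without S487A replicate 2, S487A replicate 3 or S487D replicate 3, 5 members were called higher in place of 9, and the share of all genes called higher was 16.2, 18.7 and 17.2%. The call and direction of 13 members held in each alternative that gave a value (Men1, Daxx, Rbbp5, Kmt2d, Ezh1, Suz12, Setd2, Kdm5a, Prmt1, Prmt5, Hdac2, Hdac5 and Hdac11), and the other 8 lost the call in at least 1.

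**Figure D1:**
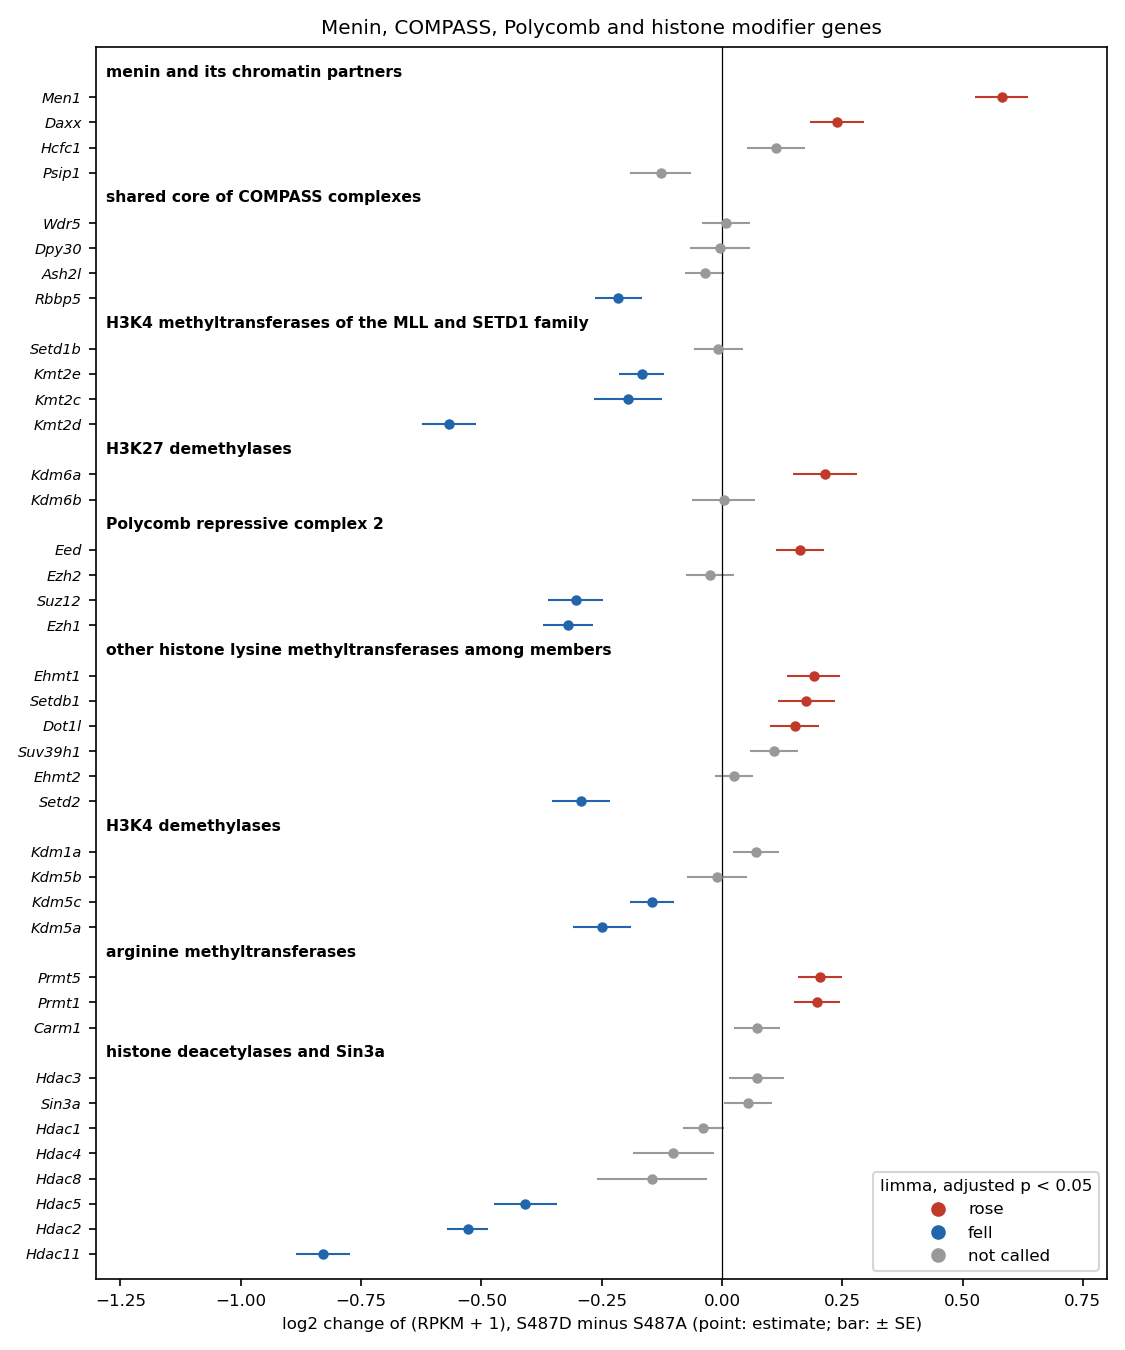
Log2 change of each of the 39 tested members, S487D minus S487A, grouped by role, with the estimate as a point, the SE as a bar and the limma call as colour. The largest fall is Hdac11 at -0.83 and the largest rise is Men1 at 0.58, while the COMPASS core genes Wdr5, Dpy30 and Ash2l lie near 0.

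Men1 was read at 71.2, 76.7 and 75.0 RPKM in the S487A libraries and at 113, 103 and 119 in the S487D libraries. Every S487D library lay above every S487A library. The log2 change of 0.58 (SE 0.055, limma adjusted p = 2.89e-05) ranged from 0.54 to 0.64 over the alternatives. An exact permutation test, two-sided, gave p = 0.1, the smallest that 3 libraries against 3 allow. The row spans chromosome 1 from 221704408 to 221710343 (rn6). Both groups carry a menin transgene, and how many of these reads come from it and how many from the native gene cannot be told apart here. Of the 50 tested genes nearest to Men1, 25 on each side, 27 rose and 6 fell, and their median log2 change was 0.18.

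Of the partners through which menin meets chromatin, Daxx rose and the other 2 were not called. Daxx, a histone H3.3 chaperone that binds menin, was read at 23.9, 25.1 and 26.2 RPKM in S487A and at 31.7, 28.5 and 29.1 in S487D (log2 change 0.24, SE 0.056, limma adjusted p = 0.00672). Psip1, which encodes the reader LEDGF that joins menin and MLL to methylated chromatin, was at 26.0 ± 2.1 and 23.7 ± 1.0 RPKM (log2 change -0.13, limma adjusted p = 0.130). It was called lower only without S487A replicate 3 (limma adjusted p = 0.0380, range 0.0380 to 0.386 over 13 alternatives). Hcfc1, a host cell factor found in SETD1 and MLL complexes, was at 13.4 ± 0.81 and 14.5 ± 0.66 RPKM (log2 change 0.11, limma adjusted p = 0.162), and was called higher after quantile normalization (0.0442) and with voom (0.0373), within a range of 0.0373 to 0.392.

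Of the 4 genes of the core that COMPASS complexes share, Rbbp5 fell and the other 3 were not called. Rbbp5, the gene of a subunit that contacts the catalytic domain, was read at 22.6, 23.0 and 24.7 RPKM in S487A and at 19.9 to 20.2 in the 3 S487D libraries. All S487D values lay below all S487A values (log2 change -0.22, SE 0.049, limma adjusted p = 0.00605). Wdr5, the scaffold that holds the core together, was at 18.4 ± 0.73 and 18.5 ± 0.46 RPKM (log2 change 0.01). Dpy30, the gene of a small dimeric subunit, had the highest level of the core, at 89.5 ± 7.8 and 89.1 ± 3.7 RPKM (log2 change -0.00), and Ash2l, which completes the core, was at 32.3 ± 0.26 and 31.5 ± 0.44 (log2 change -0.04). The limma adjusted p of these 3 ran from 0.496 to 0.959, and their signs turned under some alternatives. In RPKM the order of the core was thus Dpy30, Ash2l, Rbbp5 and Wdr5 in both groups. The ranges of genes next to each other in this order did not overlap within either group.

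Of 4 tested rows for methyltransferases of histone H3 lysine 4, 3 fell and 0 rose (75% called, against 44.4% of all genes tested). Kmt2d, the main enhancer methyltransferase of the family, on chromosome 7 from 140507137 to 140546782, was read at 18.0, 18.2 and 17.4 RPKM in S487A and at 11.6, 11.2 and 12.5 in S487D (log2 change -0.57, SE 0.055, limma adjusted p = 3.55e-05). The groups stood well apart. Of its 50 nearest tested genes, 45 fell and 1 rose, with a median log2 change of -0.47, so Kmt2d fell together with its neighbourhood. Kmt2e, a relative without known catalytic activity, went from 19.3, 18.4 and 19.2 RPKM to 16.9, 16.8 and 16.6 (log2 change -0.17, limma adjusted p = 0.0155). Its call was lost without S487A replicate 3 (0.0511) and after median centring (0.0663), within a range of 0.00387 to 0.0663. Kmt2c, the closest relative of Kmt2d, went from 3.59, 3.68 and 3.54 RPKM to 2.89, 3.04 and 3.13 (log2 change -0.20, limma adjusted p = 0.0495). That call was lost when any 1 of the 6 libraries was left out (0.0729 to 0.139) and in most other alternatives, within a range of 4.41e-04 to 0.307. Neighbours of Kmt2c and Kmt2e had median log2 changes of 0.01 and -0.01. The Kmt2d row overlaps a predicted gene on the other strand, whose reads could not be told apart from its own with a kit that does not mark strand.

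The names of this family need care in the deposited table. Its row named Setd1b lies on chromosome 1 from 199222586 to 199247993, between Orai3 and Hsd3b7. In RefSeq (GRCr8) these are the neighbours of Setd1a, whereas Setd1b lies on chromosome 12 between Hpd and Rhof. Its level was 19.3 ± 0.88 RPKM with S487A and 19.2 ± 0.56 with S487D (log2 change -0.01, limma adjusted p = 0.921). RefSeq's gene identifier for Setd1b matches a row named LOC100359816, on chromosome 12 from 38843167 to 38869180, with 13.9, 13.8 and 15.3 RPKM in the S487A libraries and 16.0, 14.6 and 17.5 in the S487D libraries. It was not called (log2 change 0.15, limma adjusted p = 0.126), but was called higher after quantile normalization (0.0348), after median centring (0.0309), with voom (0.0104) and without S487D replicate 2 (0.0452). The identifier for Kmt2b, the menin-bound methyltransferase MLL2, matches a row named LOC102550344 on chromosome 1 from 89022889 to 89042191. It was at 16.0, 17.9 and 17.6 RPKM in S487A and at 17.7, 17.8 and 19.1 in S487D (log2 change 0.08, SE 0.058, limma adjusted p = 0.274), and the groups overlapped. These rows were matched after the values had been seen and are not counted among the members. Kmt2a, the founding MLL gene, held 8, 1 and 5 reads in S487A and 1, 1 and 2 in S487D over 16367 bases, at most 0.0487 RPKM, so no direction can be read for it.

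Of the lysine 27 demethylase genes, the row named Kdm6a rose and Kdm6b was not called. The Kdm6a row lies on chromosome Y from 1065275 to 1206125 in rn6, where it overlaps several rows with LOC names, on both strands. RefSeq (GRCr8) places Kdm6a on chromosome X and lists that name as an older symbol of the Y-linked copy Uty, so the row may hold the Y copy, and near-identical copies can share reads unevenly. It was read at 8.61, 7.67 and 7.72 RPKM in S487A and at 9.26, 9.04 and 10.0 in S487D (log2 change 0.21, SE 0.067, limma adjusted p = 0.0269). The call was lost without S487A replicate 2 or 3 or S487D replicate 1 or 3 (0.0544 to 0.0936) and with no filter on low values (0.0557), within a range of 0.00141 to 0.0936. Kdm6b, a demethylase gene often induced by signals, was at 25.9 ± 1.0 and 26.0 ± 2.3 RPKM (log2 change 0.00, limma adjusted p = 0.967).

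Of 4 subunit genes of Polycomb repressive complex 2, 2 fell and 1 rose (75% called, against 44.4% of all genes tested). Ezh1, the methyltransferase typical of cells that divide little, was read at 12.2, 12.9 and 12.2 RPKM in S487A and at 9.82, 9.65 and 9.85 in S487D (log2 change -0.32, SE 0.053, limma adjusted p = 9.89e-04). Suz12, a scaffold subunit that the complex needs for activity, was at 36.2, 32.3 and 32.2 RPKM in S487A and at 28.4, 26.4 and 26.1 in S487D (log2 change -0.30, SE 0.058, limma adjusted p = 0.00232). In both genes every S487D library was below every S487A library, and neighbouring genes had median log2 changes of -0.06 and 0.03. Eed, the subunit that binds methylated lysine 27, rose from 19.8 RPKM in each S487A library to 21.0, 23.0 and 22.7 in S487D (log2 change 0.16, limma adjusted p = 0.0245). Its call was lost on leaving out any library except S487D replicate 1 (0.0509 to 0.0787), within a range of 0.00682 to 0.0787. Ezh2, the methyltransferase of proliferating cells, was at 25.5 ± 1.3 and 25.1 ± 0.52 RPKM (log2 change -0.02, limma adjusted p = 0.713). The ratio of Ezh2 to Ezh1 RPKM was 2.06 ± 0.15 with S487A and 2.57 ± 0.076 with S487D, without overlap (exact permutation test, two-sided p = 0.1, or 0.133 adjusted over 4 ratios that were chosen after the values were seen). Of the other ratios, Kmt2e to Kmt2d was 1.06 ± 0.045 with S487A and 1.43 ± 0.088 with S487D, without overlap (exact permutation p = 0.1, adjusted 0.133). Kdm5c to Kdm5a was 2.64 ± 0.124 and 2.88 ± 0.258, and its groups overlapped (exact permutation p = 0.2, adjusted 0.2). Each ratio sets a relative that fell less over a gene already seen to fall. The ratio tests therefore cannot add to the changes of the single genes.

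Of 6 tested genes for methyltransferases of other histone lysines, 3 rose by small amounts and 1, Setd2, fell (66.7% called, against 44.4% of all genes tested). Setd2, which encodes the enzyme for trimethylation of lysine 36 in transcribed genes, was read at 11.2, 10.1 and 10.0 RPKM in S487A and at 8.41, 8.34 and 8.23 in S487D (log2 change -0.29, SE 0.060, limma adjusted p = 0.00350). Ehmt1, for a lysine 9 methyltransferase, rose from 13.8, 12.8 and 13.4 RPKM to 15.1, 16.2 and 14.9 (log2 change 0.19, limma adjusted p = 0.0192), a call lost without S487A replicate 2 (0.0657) or S487D replicate 2 (0.0667), within a range of 0.00185 to 0.0667. Setdb1, which acts on lysine 9 at silenced repeats, rose from 11.3 ± 0.57 to 12.9 ± 0.54 RPKM (log2 change 0.18, limma adjusted p = 0.0355), and lost its call without S487A replicate 2 or 3 or S487D replicate 1 or 3 (0.0693 to 0.118) and with no filter (0.0592), within a range of 0.00293 to 0.118. Dot1l, the lysine 79 methyltransferase gene, rose from 20.7 ± 0.75 to 23.1 ± 1.0 RPKM (log2 change 0.15, limma adjusted p = 0.0375). Its call was lost on leaving out any library except S487A replicate 2 (0.0542 to 0.129), with no filter (0.0565) and with the replicate block (0.0530), within a range of 0.00302 to 0.129. The Dot1l and Setdb1 rows overlap Plekhj1 and Cers2 on the other strand. Ehmt2, the partner of Ehmt1, was at 87.1 ± 1.9 and 88.7 ± 2.6 RPKM (log2 change 0.03). Suv39h1, a lysine 9 methyltransferase gene of heterochromatin, was at 13.7 ± 0.21 and 14.8 ± 0.49 RPKM (log2 change 0.11, limma adjusted p = 0.109), called higher only after quantile normalization (0.0163) and median centring (0.0164), within a range of 0.0163 to 0.252. Suv39h2, its relative, was below the filter, at 0.867 ± 0.11 and 0.952 ± 0.12 RPKM.

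Of 4 demethylase genes for lysine 4, 2 fell and 0 rose (50% called, against 44.4% of all genes tested). Kdm5a was read at 10.2, 10.1 and 9.57 RPKM in S487A and at 8.48, 8.45 and 7.71 in S487D (log2 change -0.25, SE 0.061, limma adjusted p = 0.00845), in a row that overlaps Ccdc77. Kdm5c, its X-linked relative, fell from 25.8, 26.3 and 26.6 RPKM to 23.5, 22.8 and 24.5 (log2 change -0.15, limma adjusted p = 0.0274). That call was lost without S487A replicate 2 or 3 or S487D replicate 1 or 2 (0.0670 to 0.0855) and after median centring (0.130), within a range of 0.00915 to 0.130. Kdm5b was at 7.93 ± 0.45 and 7.86 ± 0.27 RPKM (log2 change -0.01). Kdm1a, the LSD1 gene, whose enzyme removes lower methylation states, had the highest level of the 4 at 61.0 ± 1.4 and 64.2 ± 3.5 RPKM (log2 change 0.07, limma adjusted p = 0.254), and was called higher only after median centring (0.0353, range 0.0353 to 0.691).

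Of 3 arginine methyltransferase genes, 2 rose and 0 fell (66.7% called, against 44.4% of all genes tested). Prmt1, the main source of asymmetric arginine methylation, was read at 50.7, 49.6 and 52.7 RPKM in S487A and at 60.5, 60.0 and 55.3 in S487D (log2 change 0.20, SE 0.048, limma adjusted p = 0.00815). Prmt5, the main symmetric enzyme and a known menin partner, was at 21.2, 21.6 and 22.1 RPKM in S487A and at 25.4, 25.5 and 24.3 in S487D (log2 change 0.20, SE 0.045, limma adjusted p = 0.00527). Neither gene's groups overlapped, and the median log2 change of neighbouring genes was 0.01 and 0.02. Carm1, another asymmetric enzyme, was at 37.9 ± 1.6 and 39.9 ± 1.3 RPKM (log2 change 0.07, limma adjusted p = 0.245) and was called higher only after median centring (0.0356, range 0.0356 to 0.494).

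Of 8 tested genes for deacetylases and Sin3a, 3 fell and 0 rose (37.5% called, against 44.4% of all genes tested). Hdac11 had the largest fall of any member. Hdac11, the sole class IV deacetylase, on chromosome 4 from 122781095 to 122798355, was read at 23.2, 22.8 and 23.1 RPKM in S487A and at 12.1, 12.1 and 13.5 in S487D. The groups were far apart, with mean RPKM 1.84-fold lower in S487D (log2 change -0.83, SE 0.056, limma adjusted p = 3.14e-06). Of its 50 neighbouring tested genes, 18 fell and 6 rose, with a median log2 change of -0.09. Hdac2, a class I enzyme of Sin3 and NuRD corepressors, on chromosome 20 from 43084870 to 43108198, was at 122, 112 and 119 RPKM in S487A and at 80.3, 82.7 and 80.6 in S487D (log2 change -0.53, SE 0.043, limma adjusted p = 1.12e-05). Of its neighbours, 41 fell and 1 rose, and their median log2 change of -0.51 was close to its own. Hdac5, a class IIa enzyme that shuttles between nucleus and cytoplasm, was at 56.0, 67.1 and 62.2 RPKM in S487A and at 48.5, 44.5 and 45.5 in S487D (log2 change -0.41, SE 0.065, limma adjusted p = 8.12e-04), with a median log2 change of -0.03 in neighbouring genes. Hdac1, the close paralog of Hdac2, had the highest RPKM of the members, at 189 ± 6.5 and 184 ± 6.4 RPKM (log2 change -0.04, limma adjusted p = 0.487). It was called lower only after quantile normalization (0.0197, range 0.0197 to 0.860). The ratio of Hdac1 to Hdac2 RPKM was 1.61 ± 0.092 with S487A and 2.26 ± 0.105 with S487D, also without overlap (exact permutation test, two-sided p = 0.1, adjusted 0.133 over the same 4 ratios). Since Hdac2 had already been seen to fall with its neighbours, this ratio adds no separate evidence.

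Remaining deacetylase genes were not called or not testable. Hdac3, the enzyme of the NCoR corepressor, was at 40.0 ± 2.5 and 42.1 ± 2.2 RPKM, and Sin3a, the corepressor scaffold, was at 13.7 ± 0.17 and 14.2 ± 0.44 (log2 changes 0.07 and 0.05). Hdac4, a class IIa enzyme, was at 2.94 ± 0.30 and 2.67 ± 0.13 RPKM, and the X-linked class I gene Hdac8 was at 1.68 ± 0.19 and 1.43 ± 0.29 (log2 changes -0.10 and -0.15). The limma adjusted p of these 4 ran from 0.331 to 0.402. Hdac9, another class IIa gene, lay below the filter with 0.775, 0.778 and 0.650 RPKM in the S487A libraries and 0.479, 0.489 and 0.448 in the S487D libraries, or 79 to 100 reads against 50 to 58. Fitted with no filter it was lower in S487D (log2 change -0.24, SE 0.062, limma adjusted p = 0.0349). Hdac6, a cytoplasmic deacetylase gene, is listed at 0 in every library. A row named LOC103689963 of the same length, 4151 bases, also on chromosome X, is likewise listed at 0, so the 0 is no measure of the level of Hdac6.

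**Figure D2:**
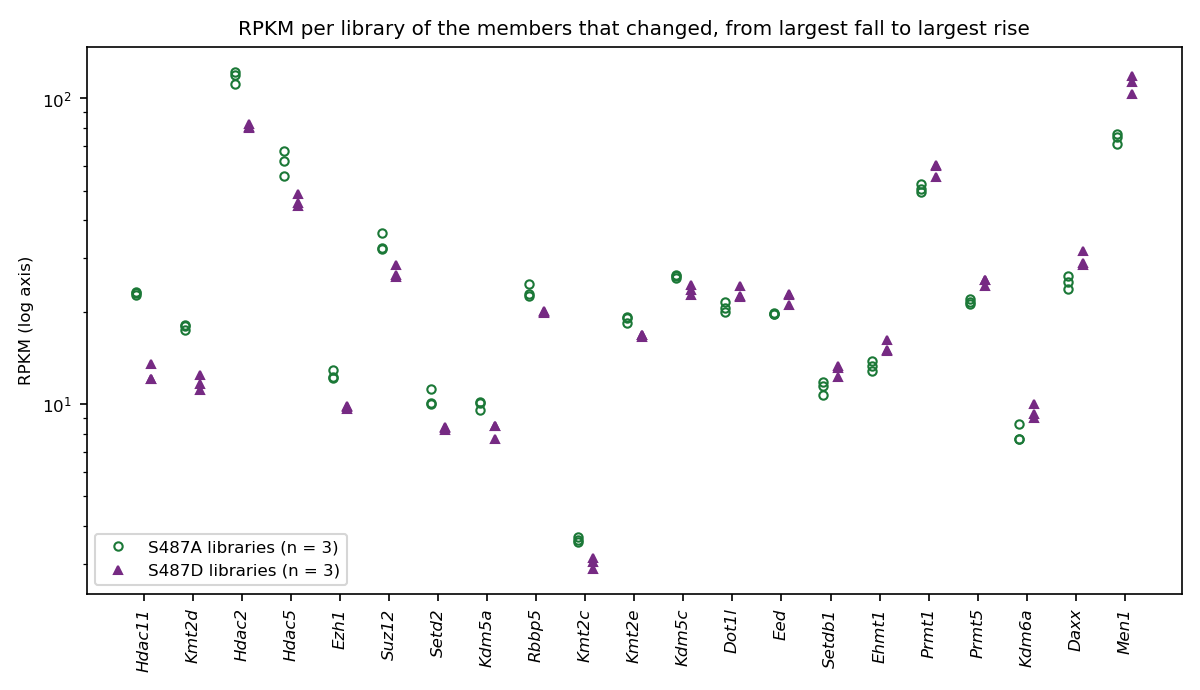
RPKM on a log axis in each of the 3 S487A libraries (circles) and 3 S487D libraries (triangles) for the 21 members that were called, ordered from the largest fall to the largest rise. In each gene the triangles lie all on one side of the circles, and the gap is widest for Hdac11, Kmt2d, Hdac2 and Men1.

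Some of the larger falls lay among genes that fell with them. A median log2 change of 0.3 or more in size over up to 25 tested neighbours on each side was found for Kmt2d and Hdac2 alone among the 39 tested members. For the others this median was at most 0.18 in size, the value at Men1. Small changes could lie close to such a median too. Dot1l changed by 0.15 with a neighbour median of 0.12, and Kdm5c by -0.15 with a neighbour median of -0.115. Kdm6a had a single tested neighbour, and Kmt2c and Ehmt1 had 40 and 29 in place of 50. Hdac11, Hdac5, Ezh1, Suz12 and Setd2 fell by more than their neighbours. What moves whole neighbourhoods was not tested.

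**Figure D3:**
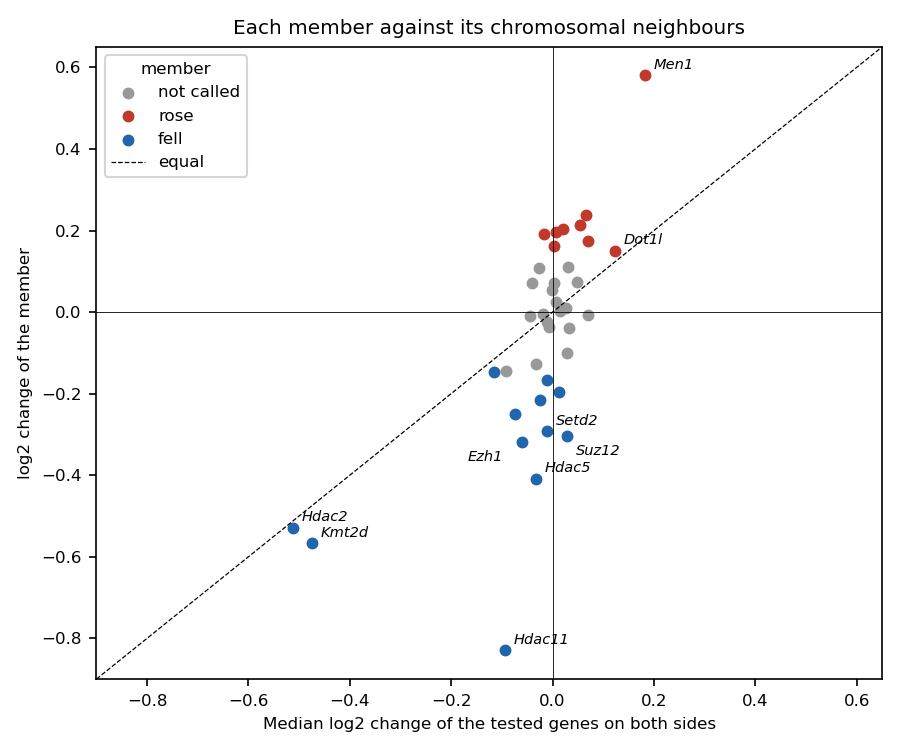
Log2 change of each of the 39 tested members (vertical) against the median log2 change of up to 25 tested genes on each side of it (horizontal), with the dashed line at equality. Hdac2 and Kmt2d sit near the line at the lower left, Hdac11 far below it, and Men1 above it.

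Promoter sequence is shown for the members with the largest falls whose RefSeq window (GRCr8) lies wholly before the annotated gene, which were Setd2, Kdm5a and Rbbp5. Each run is the 250 bases before the start, 5′ to 3′ on the gene's strand, from chr8:119389957-119390206 (plus strand), chr4:155237874-155238123 (plus strand) and chr13:46464139-46464388 (plus strand). Capitals mark GGGCGG or CCGCCC (the GC box), CCAAT or ATTGG, and TGACG or CGTCA (the core of the cAMP response element).
Setd2: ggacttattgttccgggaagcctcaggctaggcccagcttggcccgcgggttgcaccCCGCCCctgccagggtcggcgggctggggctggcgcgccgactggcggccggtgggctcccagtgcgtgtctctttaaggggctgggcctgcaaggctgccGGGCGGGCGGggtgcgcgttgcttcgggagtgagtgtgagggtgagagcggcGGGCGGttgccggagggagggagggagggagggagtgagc
Kdm5a: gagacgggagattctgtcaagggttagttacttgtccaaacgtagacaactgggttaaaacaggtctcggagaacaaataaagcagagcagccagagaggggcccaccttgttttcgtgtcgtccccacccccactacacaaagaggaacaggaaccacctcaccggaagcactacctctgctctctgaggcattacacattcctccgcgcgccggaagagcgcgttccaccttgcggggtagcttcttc
Rbbp5: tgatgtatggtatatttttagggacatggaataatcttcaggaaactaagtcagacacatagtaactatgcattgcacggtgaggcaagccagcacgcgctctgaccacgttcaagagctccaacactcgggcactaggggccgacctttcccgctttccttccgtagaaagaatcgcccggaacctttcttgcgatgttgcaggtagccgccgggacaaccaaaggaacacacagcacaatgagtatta
The Setd2 window held 4 GC boxes, a pair of them overlapping, and the other 2 windows held none of the 3 motifs. Of the 45 members, 38 had a promoter in the table, and the counts below use all 38. Only 12 of these windows lie wholly before the annotated gene, so the others may hold bases of another transcript. On both strands, GGGCGG was in 28 of these (73.7%) and in 30.5% of 33469 promoters of that length, TGACG was in 18 (47.4%) against 18.2%, and CCAAT was in 17 (44.7%) against 34.0%. The full element TGACGTCA, which contains TGACG, was in 1 member promoter, that of Suv39h2, against 1.59% of all, and CACGTG was in 2 (5.26%) against 5.59%. Base composition differed too, since the median GC content was 62.2% in member promoters and 51.2% in all. The median count of CG was 17.5 per member window and 5 per window of all promoters, and its part in these shares was not tested. A match says that the letters are present and not that a factor binds there.

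Related chromatin regulators outside the set were read from 11 lists of 165 names, of which 150 had a row and 141 were tested. Of these, 29 rose and 32 fell, so that 43.3% changed, close to the 44.4% of all genes, with a median log2 change of -0.03. Among COMPASS accessory subunits, 2 of 7 rose and 2 fell. Cxxc1, the CpG-binding subunit of SETD1 complexes, rose from 55.3 ± 1.5 to 68.0 ± 0.62 RPKM and Hcfc2 from 15.5 ± 1.1 to 18.4 ± 1.6. Ncoa6, of the KMT2C and KMT2D complexes, fell from 19.5 ± 0.25 to 17.1 ± 0.49 RPKM, and Bod1l1 fell from 10.3 ± 0.65 to 8.32 ± 0.11. Of the transcription factor genes whose products bind menin, 1 of 9 fell and 0 rose. That was Foxo1, from 22.1 ± 0.89 to 11.0 ± 1.4 RPKM, where 46 of 50 neighbouring genes fell. Among MLL fusion partners and elongation factors, 3 of 11 rose and 4 fell. Aff1, a scaffold of the elongation complex, rose by 0.46 on the log2 scale, amid neighbours with a median of 0.66, and Cdk9, the kinase of P-TEFb, and Mllt1 by 0.16 and 0.19. Ccnt1, the cyclin partner of Cdk9, fell by 0.60, amid neighbours with a median of -0.48, and Mllt6 and Aff4 fell by 0.23 each.

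Single Polycomb accessory genes held some of the larger changes of the lists. The share called was 50% in both the PRC2 accessory and the PRC1 list, against 44.4% of all genes tested. In the PRC2 accessory list, 2 of 8 rose and 2 fell. Phf19, a reader of lysine 36 methylation, rose from 5.93 ± 0.17 to 10.7 ± 0.67 RPKM (log2 change 0.76), with a neighbour median of 0.02. Mtf2, its paralog, rose from 4.80 ± 0.46 to 7.39 ± 0.14 RPKM (log2 change 0.54), with a neighbour median of 0.68. Aebp2 fell by 0.21 and Lcor by 0.30 on the log2 scale. Of 20 PRC1 genes tested, 6 rose and 4 fell. Pcgf3 rose from 13.4 ± 1.5 to 25.4 ± 0.91 RPKM, in a neighbourhood with a median of 0.69. Cbx8, a chromodomain gene, rose from 8.96 ± 0.34 to 13.4 ± 1.2 RPKM (log2 change 0.53), with a neighbour median of -0.06. Phc3 and Yaf2 fell by 0.93 and 0.63 on the log2 scale, with neighbour medians of -0.74 and -0.39, and Bcor fell by 0.24.

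In the remaining lists the counts were as mixed. Of 17 other lysine methyltransferase genes, 2 rose (Setd6 and Smyd5, by 0.37 and 0.28) and 5 fell, Setd7 the most (log2 change -0.81, with a neighbour median of -0.72), with Setd5 and Suv420h2 at -0.19 and -0.21. Of 13 other demethylase genes, 2 rose (Jmjd6 and Kdm8, by 0.23 and 0.20) and 2 fell, Jhdm1d and Jmjd1c, by 0.50 and 0.47. Neighbour medians of these 2 falls were -0.03 and -0.15. Other arginine methyltransferase genes, 4 in number, had 1 rise (Prmt7, 0.18) and 2 falls (Prmt3, -0.45, neighbour median -0.28, and Prmt2, -0.18). Sirt7, a nucleolar sirtuin gene, rose from 14.9 ± 0.26 to 26.3 ± 0.93 RPKM (log2 change 0.77, limma adjusted p = 1.96e-06), with a neighbour median of 0.09. It was 1 of 2 rises among 9 other deacetylase genes, beside Sirt6 (0.17), with Hdac7 (-0.38, neighbour median -0.49) and Sirt5 (-0.17) as the 2 falls. Corepressor subunits had 8 rises and 4 falls among 24. Sap30, Gps2 and Mta2 rose by 0.32, 0.27 and 0.22, while Ncor1 and Mta3 fell by 0.22 and 0.20. Tbl1xr1, an exchange factor of NCoR complexes, fell from 8.57 ± 0.17 to 3.68 ± 0.20 RPKM (log2 change -1.03, neighbour median -0.21). Of its 50 neighbouring genes, 25 fell and 5 rose. Tbl1xr1 lies on chromosome 2, as do Phc3, Foxo1 and Setd7, whose neighbour medians were -0.74, -0.73 and -0.72. Acetyltransferase genes had 1 rise (Kat5, 0.19, neighbour median 0.17) and 4 falls among 19, with Kat6a, Ncoa3 and Brpf1 at -0.36, -0.30 and -0.30. Of the 47 genes named from these lists, 9 had a neighbour median of 0.3 or more in size, each in the gene's own direction. Calls of Bcor, Hcfc2, Jmjd6, Kdm8, Prmt2, Prmt7, Sirt5, Sirt6, Smyd5 and Suv420h2 were lost on leaving out at least 1 library (limma adjusted p from 0.0523 to 0.154). Ncoa6 lost its call after median centring (0.0533), and Setd5 after median centring (0.0630) and quantile normalization (0.0663).

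**Figure D4:**
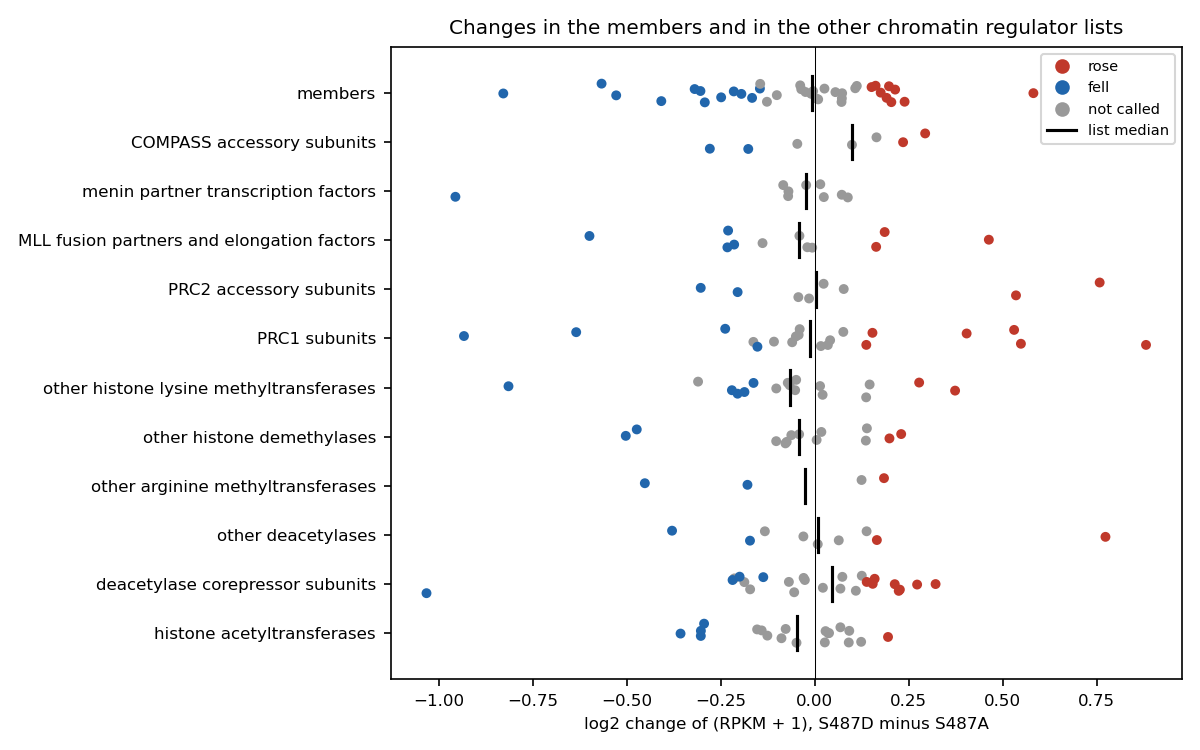
Log2 change, S487D minus S487A, of each tested gene in the set of 39 members and in 11 lists of other chromatin regulators, with the limma call as colour and the list median as a bar. The list medians lie between -0.07 and 0.10, while single genes such as Tbl1xr1, Phc3, Pcgf3 and Sirt7 lie far from them.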

How the data were processed

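The submitters' processing notes name bcl2fastq 2.17, cutadapt, TopHat2 2.0.13 and the rn6 (Rnor_6.0) build, while a counter and an annotation are not named there. Per the file headers, the authors deposited RPKM for each gene and library. Multiplied by gene length and divided by a step found for each library, they gave reads per gene. At a tolerance of 0.05, 100% of those not above 2000 reads came out whole, and 99.953% or more overall. The TruSeq RNA kit does not mark strand.

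The test was limma 3.58.1 (R 4.3.3) with an intensity trend on log2(RPKM + 1), using the group alone, for genes at RPKM 1 or above in 3 or more libraries. P-values were adjusted by Benjamini-Hochberg over 12527 genes, with a threshold of 0.05. Alternatives changed the pseudocount (0.1), the filter (none, or RPKM 5), the scaling (quantile, median centring) or the model (voom on recovered reads with trimmed mean of M values scaling, or a replicate block), or left out each library. The fit was tested on simulated data. Members, lists and tests were chosen with earlier results of these data known. Every member is accounted for, and from each other list up to 3 called genes per direction are named, those with the smallest p. Some genes that this rule takes are not reported here. Libraries within a group were further apart than read sampling gives (median chi-square ratio 1.36 to 1.88), and each counts as a replicate. RefSeq tables (GRCr8) served for names, neighbours and promoters. Python 3.11.15, pandas 2.3.3 and matplotlib 3.10.9 were also used. No protein sequence was used here.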

Additional observations from a re-analysis of the deposited data

How the results depend on the processing

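Over 13 alternatives the number of called members ran from 15 to 23 (21 as reported), those called higher from 5 to 12 and those called lower from 9 to 12. The number called higher was 5 to 7 when 1 library was left out, and the number called lower was 10 or 11. The count over all genes was within 1.5 times of the reported value throughout. The log2 change of Men1 was 0.54 to 0.64. With a replicate block, 19 members and 5335 genes were called, and Kmt2c (limma adjusted p = 0.0814) and Dot1l (0.0530) lost their calls. The numbers gave no sign of pairing, since deviations of same-numbered libraries correlated at -0.06 to 0.01. Signs turned only for members that were not called, and the cause was not tested. Median centring gave 0.022 for Ash2l, 0.053 for Dpy30, 0.033 for Ezh2, 0.019 for Hdac1, 0.048 for Kdm5b and 0.050 for Setd1b. Quantile normalization gave 0.011 for Hdac4, 0.076 for Kdm5b and 0.023 for Setd1b, and voom gave 0.010 for Dpy30, 0.001 for Kdm5b and 0.005 for Setd1b. Leaving out 1 library gave -0.062 to 0.061 for Dpy30, -0.049 to 0.014 for Ezh2, -0.044 to 0.028 for Kdm5b, -0.048 to 0.073 for Kdm6b, -0.044 to 0.016 for Setd1b and -0.018 to 0.037 for Wdr5. The median over all genes moved from -0.014 to 0.044 with median centring, and that over the members from -0.007 to 0.050. With a filter at RPKM 5, Kmt2c, Hdac4 and Hdac8 were not tested. Standard errors of 0.040 to 0.114 per member set what 3 libraries a group can show, and the largest change among members not called was 0.145 in size.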
